A study of Rattus norvegicus with 9 samples.

Results

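The genes described here are 38 complement and coagulation factors, chosen by gene symbol as a list of plasma cascade proteins and 1 cell-surface initiator and not by a threshold on measured values. They matched 39 of the 32883 identifiers of the deposited gene table, because complement factor B (Cfb) was listed under 2 identifiers. All 39 identifiers passed the filter on low counts in every comparison, so each member was tested.

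Complement is a cascade of plasma proteases and binding proteins that marks particles and microbes for uptake and ends in a pore, the membrane attack complex. It can be started by C1q bound to antibody (classical pathway), by mannose-binding lectins bound to sugars (lectin pathway) or by spontaneous turnover of C3 (alternative pathway). Coagulation is a parallel cascade in which tissue factor on cells, or contact activation of factor XII, leads through serine proteases to thrombin, fibrin and finally the removal of fibrin by plasmin. Hepatocytes are the main source of most of these proteins, whereas C1q is made mainly by macrophages, factor D mainly by fat cells, and tissue factor is a membrane protein of cells around vessels and of many stromal and epithelial cells.

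Liver RNA of 9 male Sprague-Dawley rats was sequenced on an Illumina NovaSeq instrument, with 1 library per rat and 3 rats in each of 3 groups. Normal control rats (1, 3 and 12) received a normal diet. DEN model rats (13, 17 and 24) received the liver carcinogen diethylnitrosamine (DEN), as a 0.01% solution injected into the peritoneum each week for 16 weeks. PZH administration rats (27, 28 and 42) received the same DEN course and in addition PZH (Pien-Tze-Huang), a traditional Chinese formula. The groups were read from the first letter of the rats' names, since the treatment tag of the labels reads PZH for the DEN model rats as well. The sources used here do not give the PZH dose of the sequenced rats or the week at which their livers were taken.

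Total counts per library ranged from 14922973 to 27161496. Levels in CPM, a gene's counts relative to the total of its library, are scaled by TMM factors, which were 0.731 to 0.799 for normal control rats, 1.21 to 1.58 for DEN model rats and 0.864 to 0.942 for PZH administration rats. Replacing these factors by plain library totals moved the all-gene median of the log2 fold change from 0.03 to 0.89 in DEN model against normal control rats, and from 0.01 to -0.67 in PZH administration against DEN model rats. Values of the 3 rats of a group are always given in the order of their numbers above. In bulk liver RNA, fewer cells of a type and less RNA of a gene per cell cannot be told apart.

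The levels of the members spanned more than 3 orders of magnitude. On the FPKM scale (fragments per length and library size, deposited by the authors), the fibrinogen gamma chain gene Fgg was highest in the normal control group at 3406 ± 1168 FPKM (SD, n = 3). Next came C3, the central complement protein, at 2367 ± 177 FPKM, and the other fibrinogen chains, Fga at 2212 ± 551 FPKM and Fgb at 1606 ± 563 FPKM. The SD ranges of neighbours in this order overlapped. Because all genes were measured in the same rats, that overlap does not show that neighbours are equal. Fga was above Fgb in each normal control rat, at 2641, 2403 and 1590 FPKM against 1693, 2120 and 1004 FPKM. The order of Fgg and C3, and that of C3 and Fga, changed between rats. No test between genes was made. Prothrombin (F2) at 1121 ± 218 FPKM and plasminogen (Plg) at 947 ± 103 FPKM followed, with overlapping spreads, though F2 was above Plg in each normal control rat. At the low end stood factor VII (F7) at 30.6 ± 9.42 FPKM, factor D (Cfd) at 12.3 ± 6.65 FPKM and tissue factor (F3) at 0.729 ± 0.363 FPKM, and the SD ranges of these 3 did not overlap. The same 4 genes, Fgg, C3, Fga and Fgb, led the order in the DEN model and PZH administration groups as well. Mbl2, encoding a mannose-binding lectin, went from rank 29 of 39 in the normal control group to rank 38 in the DEN model group and rank 30 in the PZH administration group. C1qb went from rank 30 to rank 12 and then to rank 31.

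**Figure D1:**
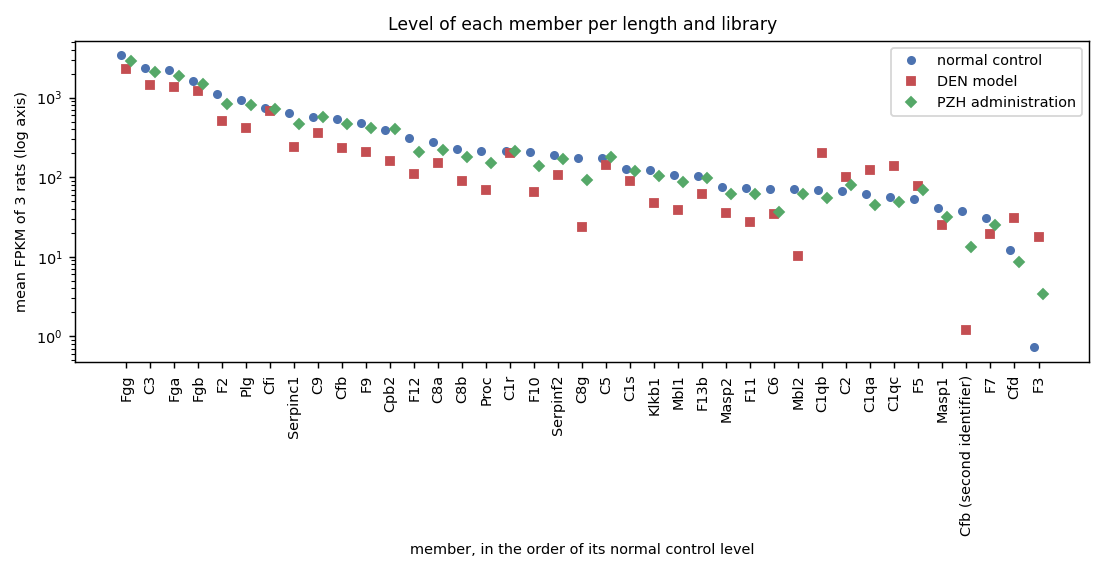
Mean FPKM of 3 rats (log axis) for each of the 39 member identifiers, ordered by the normal control level, with circles for normal control, squares for DEN model and diamonds for PZH administration. The fibrinogen chains and C3 lie at the top in all 3 groups, and F3 lies lowest in the normal control group at 0.729 FPKM and reaches 17.5 FPKM in the DEN model group.

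The comparison of DEN model with normal control rats asks which genes go with the disease. Most members were lower in the DEN model rats: 28 of 39 fell and 1 (F3) rose (edgeR's quasi-likelihood test, adjusted p under 0.05). Among all genes tested, 45.8% were called, with 20.5% of all genes lower and 25.3% higher. The median log2 fold change of the members was -1.63, against 0.03 over all genes. At the study's own thresholds, a log2 fold change above 2 in size and an unadjusted P under 0.001, 11 members were called, 10 of them lower, against 12.3% of all genes. In 31 of 39 members the 3 DEN model rats lay below the 3 normal control rats without overlap, and in 2 (C1qb and F3) they lay above. Of all genes tested, 27.4% were lower and 31.4% higher without overlap.

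The 10 members not called in that comparison were C1qa, C1qb, C1qc, C2, C3, C5, Cfd, F5, Fgb and Fgg. With library totals in place of TMM factors, 27 members were called, 22 lower and 5 higher, the 5 being F3, C1qa, C1qb, C1qc and Cfd. With that scaling 6.72% of all genes were called lower and 57% higher. Under every alternative with 1 choice changed and with each rat left out in turn, 21 of the 29 called members kept their call. They were Mbl1, Mbl2, Masp1, Masp2, C6, C8a, C8b, C8g, F2, F9, F10, F11, F12, Klkb1, Proc, Plg, Cpb2, F13b, Serpinc1, F3 and the second Cfb identifier. The assignment of reads to that identifier is uncertain. What share of all called genes kept their call was not computed.

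The comparison of PZH administration with DEN model rats asks which genes go with the drug. Here 14 of 39 members rose and 3 (C1qb, Cfd and F3) fell at an adjusted p under 0.05, against 8.72% of all genes called higher, 10.3% called lower and 19.1% called in all. The median log2 fold change of the members was 1.28, against 0.01 over all genes, and 34 of 39 fitted values were above 0. At the study's thresholds 2 members, Mbl2 and C8g, were higher and none lower, against 2.43% of all genes. With library totals 13 members were called higher and 5 lower, the 5 being C1qa, C1qb, C1qc, Cfd and F3, against 3.9% of all genes called higher and 39.9% lower.

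The number of calls between PZH administration and DEN model rats moved with single rats, for the members as for all genes. Without DEN model rat 13 only Mbl2 was called (1 member), against 1.87% of all genes. Without DEN model rat 24 the count was 3, against 5% of all genes. Without DEN model rat 17 it was 30, of which 27 were higher, against 22.6% of all genes. Leaving out PZH administration rat 27, 28 or 42 gave 9, 4 and 7 calls, against 14.9%, 7.94% and 8.22% of all genes. Mbl2 was called in 6 of these 6 fits, Cpb2 in 5, C8g in 4, and Cfd and F11 in 3 each. Of the other members called with all rats, Klkb1, Proc, F9, C8b and C1qb were called in 2 each. F3, Masp2, Plg, Serpinc1, F12, F13b and C9 were called in 1 each. The split of 34 positive and 5 negative fitted values was the same in all 6 fits. DESeq2 called 28 members, 25 higher and 3 lower, against 26.5% of all genes.

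The PZH administration rats differed from the normal control rats in 2 members, F3 (higher) and C6 (lower), against 5.21% of all genes called, 4.07% higher and 1.15% lower. The median log2 fold change of the members was -0.48, against -0.02 over all genes, and 36 of 39 fitted values were below 0. At an unadjusted p under 0.05, 8 members differed, 7 of them lower, against 18.5% of all genes. No member met the study's thresholds, which 2.32% of all genes met. DESeq2 called 5 members, against 9.89% of all genes. Leaving out PZH administration rat 27 gave 8 calls, against 9.73% of all genes, among them C8g, F10, F12, Mbl1 and Proc as lower. Leaving out normal control rat 1 or 12 gave 1 call each, against 1.51% and 2.44% of all genes. Leaving out normal control rat 3, PZH administration rat 28 or PZH administration rat 42 gave 0 calls in edgeR's quasi-likelihood test, against 3.14%, 1.56% and 2.66% of all genes. In these last fits 11, 4 and 5 members had an unadjusted p under 0.05, against 19.1%, 12.6% and 14.3% of all genes. The 3 comparisons share their rats in pairs, so their values for a gene are not independent of each other.

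**Figure D2:**
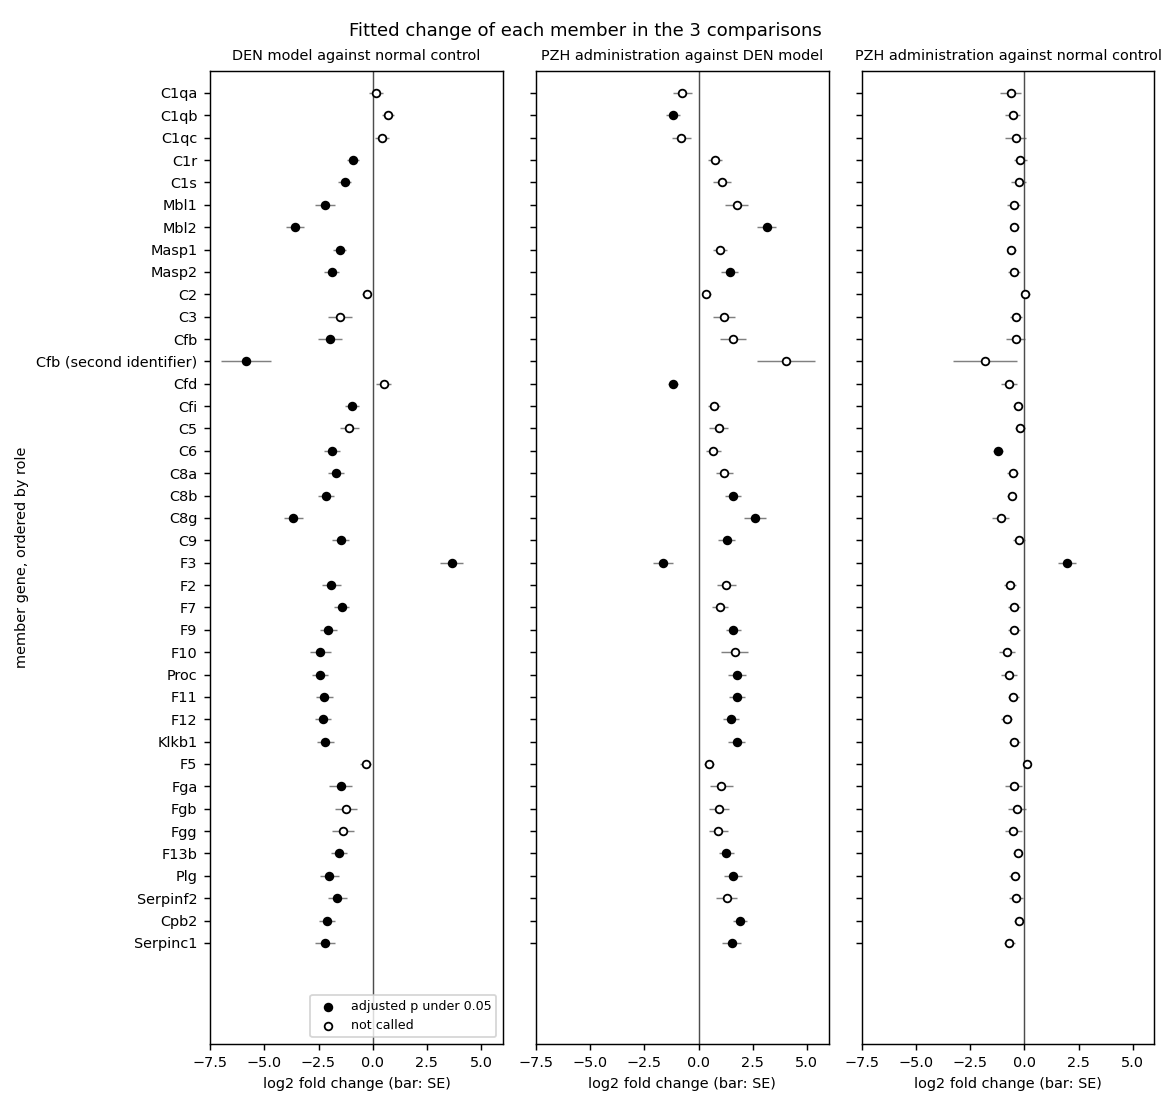
Fitted log2 fold change of each member identifier (points) with its standard error (bars) in the 3 comparisons, with filled points for an adjusted p under 0.05. In DEN model against normal control rats 34 of 39 points lie below 0, in PZH administration against DEN model rats 34 lie above 0, and in PZH administration against normal control rats 36 lie below 0; C2 and F5 change sides in the first 2 panels when library totals replace TMM factors.

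Within the DEN model and PZH administration groups, most members had the same order of rats. DEN model rat 17 had the highest CPM of its group in 33 of 39 members, and DEN model rat 24 the lowest in 35. PZH administration rat 27 was highest of its group in 30 members and rat 42 lowest in 31. In the normal control group the highest value was spread more evenly, over rat 1 in 14 members, rat 3 in 15 and rat 12 in 10.

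**Figure D3:**
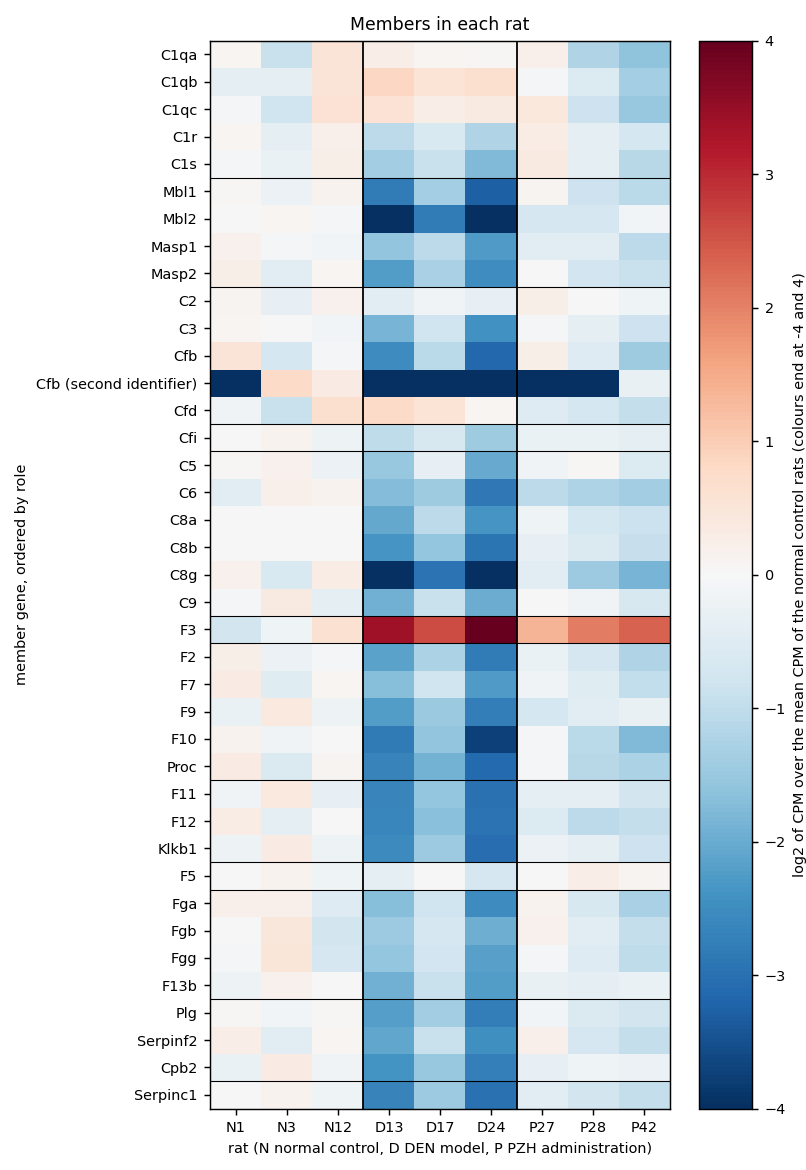
Each member identifier in each rat as log2 of its CPM over the mean CPM of the 3 normal control rats, with rows ordered by role, horizontal lines between roles and vertical lines between groups. The DEN model rats D13, D17 and D24 are below the normal control mean (blue) for most rows, least so in rat 17, while F3 is above it (red) in all 3 of them; C2 and F5, which are pale in this plot, lie above the normal control mean when library totals are used.

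Among the classical pathway genes, the C1 proteases fell in the DEN model rats, whereas the calls on the C1q chains depended on the setting. C1qa, C1qb and C1qc encode the chains of the recognition protein C1q, and lie side by side on chromosome 5 in the authors' coordinates (155246447 to 155264143, genome build not given in the sources used here). C1qa stood at 85.7, 43.9 and 116 CPM in the normal control rats, 98.3, 86.7 and 85.1 CPM in the DEN model rats and 94.4, 35.9 and 26.8 CPM in the PZH administration rats. C1qb stood at 73.9, 75.2 and 137 CPM in the normal control rats, 171, 138 and 149 CPM in the DEN model rats and 92.5, 65.9 and 37.5 CPM in the PZH administration rats. C1qc stood at 73.8, 45.5 and 117 CPM in the normal control rats, 119, 95.6 and 101 CPM in the DEN model rats and 106, 43.9 and 27.6 CPM in the PZH administration rats. Only C1qb separated the DEN model rats from the normal control rats without overlap, with normal control rat 12 the nearest.

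The log2 fold change of C1qb in DEN model against normal control rats was 0.69 ± 0.27 (SE, adjusted p = 0.0696) and in PZH administration against DEN model rats -1.19 ± 0.32 (adjusted p = 0.0368). C1qb was called higher in the first comparison with DESeq2 (adjusted p = 0.0393), with upper-quartile factors (adjusted p = 0.0337) and in edgeR's test once genes under 10 counts in any rat were left out (adjusted p = 0.0438). C1qa and C1qc were at 0.16 and 0.43 in the first comparison and -0.74 and -0.79 in the second, none of them called with TMM factors and all rats. Without normal control rat 3 the value of C1qa in the first comparison was -0.15, and without normal control rat 12 C1qb, C1qc and Cfd were called higher. The proteases C1r and C1s, which C1q activates and whose genes are 6.76 kb apart on chromosome 4, fell in the DEN model rats by 0.91 ± 0.29 and 1.29 ± 0.30 on the log2 scale (adjusted p = 0.0318 and 0.00832), the call on C1r being lost without normal control rat 1 or 12 or DEN model rat 13 or 24. C1s stood at 675, 576 and 819 CPM in the normal control rats, 263, 373 and 201 CPM in the DEN model rats and 892, 523 and 319 CPM in the PZH administration rats. DEN model rat 17 was the nearest to the normal control rats and PZH administration rat 42 lay inside the range of the DEN model rats.

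Macrophage markers bear on the C1q values. Among all genes, 25.3% rose and 20.5% fell in DEN model against normal control rats, and 10.3% fell in PZH administration against DEN model rats. Of 9 macrophage and Kupffer cell markers, all with counts above 0 in every rat, 1 rose (Lyz2) and 3 fell (Clec4f, Marco and Cd5l) in the DEN model rats, and 4 fell in the PZH administration rats against the DEN model rats (Cd68, Adgre1, Csf1r and Lyz2). Their summed level ranged from 734 to 1249.6 CPM in the normal control group, from 842 to 1133 CPM in the DEN model group and from 442 to 884 CPM in the PZH administration group. The summed C1q level ranged from 165 to 370 CPM, from 321 to 388 CPM and from 91.9 to 293 CPM in the same groups. The ratio of the C1q sum to the marker sum was 0.308, 0.224 and 0.296 in the normal control rats, 0.342, 0.381 and 0.311 in the DEN model rats and 0.332, 0.210 and 0.208 in the PZH administration rats. This ratio depends on Lyz2, whose group means were 28.1, 332 and 78.8 CPM in the same order. Clec4f went the other way in the DEN model group, with means of 268, 110 and 161 CPM, as did Cd5l at 147, 73.3 and 96.6 CPM. A ratio without Lyz2 was not computed. The part of these cells in the C1q values was not tested.

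All 4 lectin pathway genes fell in the DEN model rats, and 2 of them rose in the PZH administration rats. Mbl1 and Mbl2 encode mannose-binding lectins, and Masp1 and Masp2 the proteases that travel with them. Mbl2 stood at 157, 168 and 153 CPM in the normal control rats, 8.87, 23.0 and 7.74 CPM in the DEN model rats and 99.2, 101 and 146 CPM in the PZH administration rats. The 3 groups did not overlap, with the DEN model rats lowest, and PZH administration rat 42 came nearest to the normal control rats. The log2 fold change of Mbl2 was -3.58 ± 0.42 (SE, adjusted p = 0.000424) in DEN model against normal control rats. Against the DEN model group, the PZH administration group was higher by 3.15 ± 0.44 (adjusted p = 0.00898). Against the normal control group it was at -0.46 (adjusted p = 0.296).

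Mbl1 fell by 2.21 ± 0.45 in the DEN model rats (adjusted p = 0.00486), and its value of 1.76 against the DEN model group missed the threshold (adjusted p = 0.0504). Mbl1 stood at 169, 137 and 181 CPM in the normal control rats, 23.5, 63.3 and 16.97 CPM in the DEN model rats and 175, 92.1 and 77.3 CPM in the PZH administration rats. PZH administration rat 27 was within the normal control range and rats 28 and 42 lay between that range and the DEN model rats. Masp2 fell by 1.88 ± 0.34 and rose by 1.44 ± 0.38 after PZH (adjusted p = 0.00291 and 0.036). Masp1 fell by 1.53 ± 0.30 (adjusted p = 0.00371) and was at 0.97 in the second comparison (adjusted p = 0.071).

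Among the genes of the C3 and C5 convertases and the alternative pathway, the calls were fewer. C3 stood at 18237, 17417 and 16027 CPM in the normal control rats, 4720.1, 10005 and 3244 CPM in the DEN model rats and 16484, 13242 and 9721 CPM in the PZH administration rats. All DEN model rats lay below all normal control rats, but they were far apart from each other with rat 17 highest and rat 24 lowest, and the log2 fold change of -1.51 ± 0.55 had an adjusted p of 0.0517. C2, the protease of the classical and lectin convertases, stood at 243, 180.2 and 256 CPM in the normal control rats, 168, 207 and 179 CPM in the DEN model rats and 268, 228 and 201 CPM in the PZH administration rats. Its groups overlapped, and its value of -0.28 with TMM factors turned to 0.57 with library totals (adjusted p = 0.0511) and to 0.58 with limma on log2(FPKM + 1), which called C2 higher (adjusted p = 0.0356).

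Cfb, the protease of the alternative pathway convertase, lies 0.267 kb from C2 on chromosome 20 and fell in the DEN model rats by 1.96 ± 0.56 (adjusted p = 0.0204). Without normal control rat 1, DEN model rat 13 or DEN model rat 24 that call was lost. The second Cfb identifier covers 4536203 to 4561066 on chromosome 20 and so overlaps both Cfb and C2, whose reads it can share. It stood at 115, 5304 and 4336 counts in the normal control rats, 114, 97 and 95 counts in the DEN model rats and 196, 60 and 2961 counts in the PZH administration rats. Normal control rat 1 was level with the DEN model rats, while rats 3 and 12 and PZH administration rat 42 were far above them. Its fitted fall of 5.85 ± 1.16 (adjusted p = 0.00422) therefore rests on an uncertain assignment of reads. With both identifiers summed, Cfb stood at 2527, 1527 and 2029 CPM, at 314, 835 and 205 CPM, and at 2094, 1235 and 869 CPM in the 3 groups, with no overlap between DEN model and normal control rats, and 28 members were then called in that comparison, against 45.8% of all genes (an alternative added after the data were seen).

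Cfd encodes factor D, which cleaves factor B. Cfd stood at 18.02, 10.7 and 30.7 CPM in the normal control rats, 33.4, 29.1 and 20.9 CPM in the DEN model rats and 13.8, 12.1 and 10.2 CPM in the PZH administration rats. The DEN model and normal control rats overlapped, whereas every PZH administration rat was below every DEN model rat. Cfd was at 0.50 ± 0.36 in the DEN model group (adjusted p = 0.281) and fell by 1.18 ± 0.23 in PZH administration rats against that (adjusted p = 0.0164). Of 4 fat cell markers, Plin1 and Lep had 0 counts in all 9 rats and Adipoq had 0 counts in the normal control rats, 6 to 13 in the DEN model rats and 3 to 6 in the PZH administration rats. Cidec, the only one tested, fell in the DEN model rats, by 1.64 ± 0.32 (adjusted p = 0.00371). Cidec had 967 to 1834 counts in the normal control rats, where the other fat cell markers had 0. The part of fat cells in the Cfd values was not tested. Cfi, which encodes the inhibitor factor I that degrades active C3 and C4, stood at 2069.7, 2238 and 1778 CPM in the normal control rats, 1009, 1309 and 752 CPM in the DEN model rats and 1695, 1669 and 1571 CPM in the PZH administration rats. The DEN model rats were lowest without overlap, and Cfi fell by 0.97 ± 0.32 (adjusted p = 0.0357), a call lost without any one of normal control rats 1, 3 and 12 and DEN model rats 13 and 24.

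In the terminal pathway, whose products build the membrane attack complex, 5 of 6 genes fell in the DEN model rats and 3 rose in the PZH administration rats. C8g, the gamma chain of C8, fell most. It stood at 208, 121 and 224 CPM in the normal control rats, 10.2, 23.8 and 9.40 CPM in the DEN model rats and 139, 66.8 and 50.5 CPM in the PZH administration rats. Every DEN model rat was below every rat of the other groups, and PZH administration rats 28 and 42 were below all normal control rats. The log2 fold change of C8g was -3.66 ± 0.42 (SE, adjusted p = 0.000414) in the DEN model group, and the PZH administration group was higher than that by 2.595 ± 0.49 (adjusted p = 0.0153) and at -1.10 against the normal control group (adjusted p = 0.153).

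C8a and C8b, the other chains of C8, are neighbours on chromosome 5, 10.4 kb apart, whereas C8g lies on chromosome 3. C8b stood at 737, 736 and 723 CPM in the normal control rats, 143, 253 and 96.0 CPM in the DEN model rats and 578, 493 and 387 CPM in the PZH administration rats. The normal control rats differed little from each other and the 3 groups did not overlap. C8b fell by 2.14 ± 0.36 and rose by 1.59 ± 0.37 after PZH (adjusted p = 0.0021 and 0.0249). C8a fell by 1.69 ± 0.38 (adjusted p = 0.00679) and was at 1.19 in the second comparison (adjusted p = 0.0674). C9, the pore-forming protein, fell by 1.49 ± 0.40 and rose by 1.295 ± 0.38 (adjusted p = 0.0155 and 0.0477). The call on C9 in the DEN model group was lost without rat 13 or rat 24, and its rise after PZH was called in 1 of 6 fits with a rat left out.

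C6 was lower than in the normal control rats in both groups that received DEN. It stood at 207, 325 and 308 CPM in the normal control rats, 84.4, 105 and 38.5 CPM in the DEN model rats and 135, 119 and 107 CPM in the PZH administration rats. The PZH administration rats were above the DEN model rats yet below every normal control rat. C6 fell by 1.87 ± 0.38 in the DEN model group (adjusted p = 0.00448), was at 0.69 in PZH administration rats against that (adjusted p = 0.19), and was lower than in the normal control group by 1.22 ± 0.24 (adjusted p = 0.0211). C5, which starts pore assembly, was at -1.09 ± 0.44 in the DEN model group (adjusted p = 0.0698), and was called lower there without DEN model rat 17.

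F3, tissue factor, the receptor that starts coagulation with factor VII, rose in the DEN model rats. It stood at 1.01, 1.51 and 2.59 CPM in the normal control rats, 17.7, 10.3 and 36.0 CPM in the DEN model rats and 4.39, 7.02 and 8.75 CPM in the PZH administration rats, or 13, 18 and 34 counts in the normal control rats. The 3 groups did not overlap, with the DEN model rats highest and the PZH administration rats between. F3 rose by 3.65 ± 0.54 (SE, adjusted p = 0.0011) on the log2 scale in the DEN model group, fell by 1.66 ± 0.46 in PZH administration rats against that (adjusted p = 0.0404), and was higher there than in the normal control group by 1.97 ± 0.43 (adjusted p = 0.0355). With 1 rat left out, these 3 calls were made in 6, 1 and 2 of 6 fits.

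Markers of bile duct and stromal cells moved with F3. All 6 cholangiocyte markers rose in the DEN model rats and all 6 fell in the PZH administration rats against them, and of 8 stellate cell and myofibroblast markers 7 rose and 5 fell. Among all genes, 25.3% were called higher in the first of these comparisons and 10.3% lower in the second. The summed cholangiocyte markers held 0.00107 to 0.00164% of counts in the normal control group, 0.0285 to 0.119% in the DEN model group and 0.00698 to 0.00999% in the PZH administration group. The summed stellate markers held 0.0143 to 0.0258%, 0.127 to 0.505% and 0.0564 to 0.0673%. Among the cholangiocyte markers, Krt7 had 0 to 3 counts in the normal control rats. DEN model rat 17 was the lowest of its group for F3 at 10.3 CPM and for the cholangiocyte sum at 0.0285% of counts. It was also the lowest for the stellate (0.127%), macrophage (0.102%), neutrophil (0.00172%) and lymphocyte (0.0137%) sums, but not for the endothelial, platelet or red cell sums. The part of these cells in the F3 values was not tested.

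**Figure D4:**
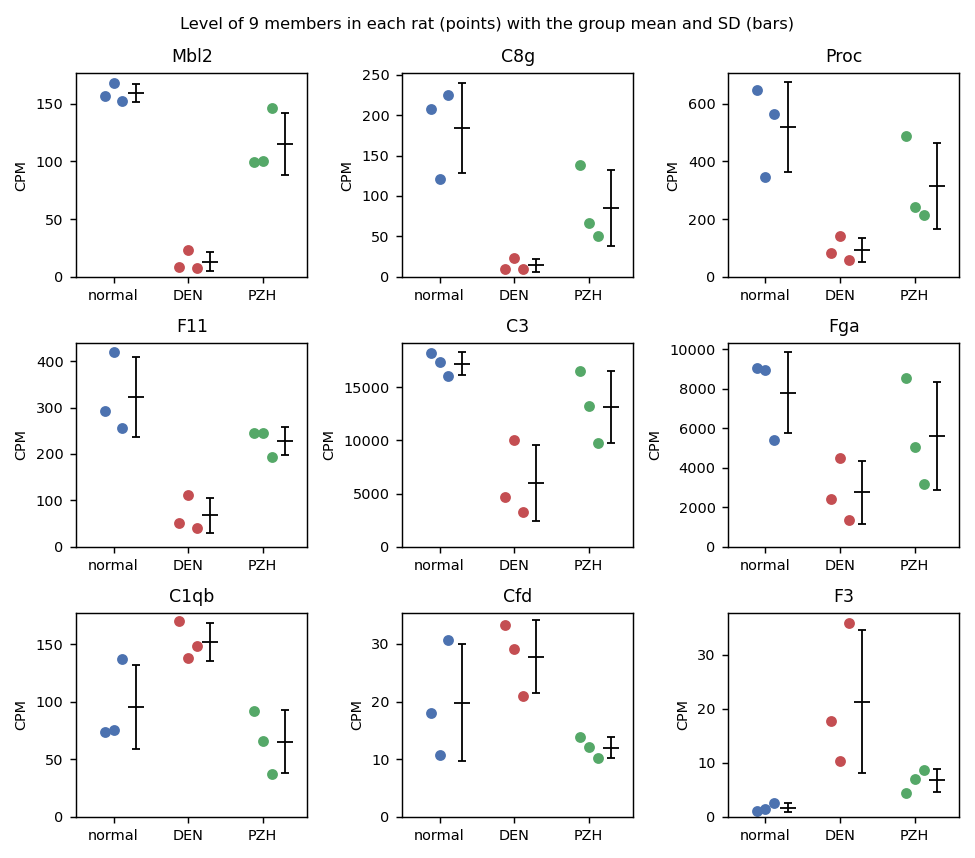
CPM of 9 members in each rat (points, in the order of rat number) with the group mean and standard deviation (bars), each panel starting at 0. Mbl2, C8g, Proc and F11 are lowest in the DEN model rats without overlap, C1qb and F3 are highest there, and F3 in the PZH administration rats (4.39 to 8.75 CPM) lies above the normal control rats (1.01 to 2.59 CPM).

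The vitamin K-dependent serine proteases all fell in the DEN model rats. Proc encodes protein C, the anticoagulant protease that inactivates the cofactors V and VIII. Proc stood at 647, 345 and 563 CPM in the normal control rats, 81.7, 141 and 59.4 CPM in the DEN model rats and 487, 241 and 216 CPM in the PZH administration rats. Lowest without overlap were the DEN model rats, and normal control rat 3 was below PZH administration rat 27. Proc fell by 2.44 ± 0.38 and rose by 1.77 ± 0.43 after PZH (adjusted p = 0.00148 and 0.0268). F9, the protease lacking in haemophilia B, stood at 1431, 2261 and 1517 CPM in the normal control rats, 372, 619.8 and 258 CPM in the DEN model rats and 1066, 1294 and 1403 CPM in the PZH administration rats. Its DEN model rats were lowest without overlap, and the PZH administration rats lay just below the normal control rats. F9 fell by 2.05 ± 0.40 and rose by 1.61 ± 0.36 (adjusted p = 0.00395 and 0.0215).

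F10, the protease that forms thrombin, fell by 2.42 ± 0.50 (adjusted p = 0.00489), and its neighbour F7, the partner of tissue factor, by 1.44 ± 0.36 (adjusted p = 0.0122). The 2 genes are 1.40 kb apart on chromosome 16. Prothrombin (F2) fell by 1.90 ± 0.44 (adjusted p = 0.00791). None of F2, F7 and F10 was called between PZH administration and DEN model rats, where they were at 1.29, 0.997 and 1.67 (adjusted p = 0.0779, 0.101 and 0.0901).

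The contact and intrinsic pathway genes F11, F12 and Klkb1 fell together and rose together, each past the study's thresholds in the DEN model group. F12 starts the contact pathway, Klkb1 encodes plasma prekallikrein, which factor XII activates, and F11 carries the signal to factor IX. F12 stood at 1352, 865 and 1081 CPM in the normal control rats, 179, 343 and 141 CPM in the DEN model rats and 759.8, 530.4 and 565 CPM in the PZH administration rats. F11 stood at 293, 419 and 255 CPM in the normal control rats, 51.5, 111 and 40.9 CPM in the DEN model rats and 245, 245 and 194 CPM in the PZH administration rats. Klkb1 stood at 356, 518 and 358 CPM in the normal control rats, 70.0, 149 and 50.1 CPM in the DEN model rats and 349.9, 312 and 232 CPM in the PZH administration rats. For all 3 genes the DEN model rats were below all other rats, and the PZH administration rats were also below all normal control rats.

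F12 fell by 2.29 ± 0.39 and rose by 1.51 ± 0.37 (adjusted p = 0.00206 and 0.0275), F11 by 2.24 ± 0.40 and 1.78 ± 0.37 (adjusted p = 0.00274 and 0.0191). Klkb1 fell by 2.18 ± 0.41 and rose by 1.76 ± 0.41 (adjusted p = 0.00344 and 0.0244). Klkb1 and F11 are 4.0 kb apart on chromosome 16. F5, the cofactor of factor X that is itself no protease, was not called in any of the 3 comparisons by edgeR's test with TMM factors. It stood at 439, 486 and 392 CPM in the normal control rats, 339, 435 and 274 CPM in the DEN model rats and 441, 522 and 478 CPM in the PZH administration rats. The normal control and DEN model rats overlapped, and the value of -0.31 ± 0.25 (adjusted p = 0.335) turned to 0.53 with library totals (adjusted p = 0.0516) and to 0.51 with limma on log2(FPKM + 1), which called F5 higher (adjusted p = 0.0273).

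The fibrinogen genes lie side by side on chromosome 2 in the order Fgg, Fga, Fgb (181987217 to 182038178 in the authors' coordinates). Fga stood at 9049, 8952 and 5424 CPM in the normal control rats, 2421, 4489 and 1372 CPM in the DEN model rats and 8559.8, 5059.9 and 3194 CPM in the PZH administration rats. Fgb stood at 7219, 9831 and 4264 CPM in the normal control rats, 2615, 4479 and 1849 CPM in the DEN model rats and 8007, 5227 and 3638 CPM in the PZH administration rats. Fgg stood at 6671, 9624 and 4297 CPM in the normal control rats, 2334, 4014 and 1535 CPM in the DEN model rats and 6432, 4792 and 3409 CPM in the PZH administration rats. The 3 chains followed each other from rat to rat: in each, normal control rat 12, DEN model rat 24 and PZH administration rat 42 were the lowest of their groups.

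Fga fell in the DEN model rats by 1.48 ± 0.52 (adjusted p = 0.0455), while Fgb at -1.24 and Fgg at -1.37 missed the threshold (adjusted p = 0.0724 and 0.0534). The call on Fga was lost when any 1 rat other than DEN model rat 17 was left out, and without rat 17 Fgb and Fgg were called as well. Whether the chains differ from each other in their change was not tested. F13b encodes the carrier chain of factor XIII, which cross-links fibrin. F13b stood at 327, 425 and 375 CPM in the normal control rats, 98.3, 203 and 80.6 CPM in the DEN model rats and 304, 289.6 and 315 CPM in the PZH administration rats. Lowest were the DEN model rats, and the PZH administration rats were all a little below the normal control rats. F13b fell by 1.55 ± 0.36 and rose by 1.28 ± 0.35 (adjusted p = 0.00826 and 0.0381).

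The promoters of the fibrinogen genes are shown because they serve one protein and hold motifs known from acute-phase genes, and that of Mbl2 because Mbl2 kept its call in every fit of both comparisons it was called in (Mbl2 was picked for this after its values were seen). Each is the 250 bases before the annotated start, 5′ to 3′ on the strand of the gene, from RefSeq on build GRCr8. Fga had 2 listed starts, of which the first was taken. Capitals mark matches, on either strand, to CTGGGA (the acute-phase element described in fibrinogen genes) and TTNNGNAA (a C/EBP pattern).
Fga, chr2:170671919-170672168, plus strand: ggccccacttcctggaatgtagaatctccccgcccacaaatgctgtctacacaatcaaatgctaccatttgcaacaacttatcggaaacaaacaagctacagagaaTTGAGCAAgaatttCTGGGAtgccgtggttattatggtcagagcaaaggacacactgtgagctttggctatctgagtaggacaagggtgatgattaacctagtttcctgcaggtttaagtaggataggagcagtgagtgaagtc
Fgb, chr2:170700876-170701125, minus strand: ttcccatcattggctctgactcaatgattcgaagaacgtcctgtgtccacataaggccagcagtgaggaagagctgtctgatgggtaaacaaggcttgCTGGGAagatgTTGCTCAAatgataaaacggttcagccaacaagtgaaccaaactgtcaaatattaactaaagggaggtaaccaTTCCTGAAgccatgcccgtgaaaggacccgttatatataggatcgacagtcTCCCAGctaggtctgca
Fgg, chr2:170652833-170653082, plus strand: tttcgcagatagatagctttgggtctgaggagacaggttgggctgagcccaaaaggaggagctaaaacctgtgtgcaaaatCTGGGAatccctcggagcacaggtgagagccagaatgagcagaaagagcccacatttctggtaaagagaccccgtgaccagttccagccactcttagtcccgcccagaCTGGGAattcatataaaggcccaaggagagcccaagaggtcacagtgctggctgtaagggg
Mbl2, chr1:237430793-237431042, plus strand: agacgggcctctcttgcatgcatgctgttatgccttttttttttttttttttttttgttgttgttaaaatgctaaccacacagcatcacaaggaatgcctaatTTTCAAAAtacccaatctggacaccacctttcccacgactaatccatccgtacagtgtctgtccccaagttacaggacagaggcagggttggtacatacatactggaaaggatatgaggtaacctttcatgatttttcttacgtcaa
No 2 of the marked matches overlap in these windows. CTGGGA was found at 130 to 125 bases before the start of Fga, at 152 to 147 and 17 to 12 before Fgb, and at 169 to 164 and 61 to 56 before Fgg, and not in the Mbl2 window. Of the 38 genes, 29 had a promoter in the table by symbol or gene ID (C1qc, C1s, Masp2, C2, Cfb, C8g, C9, F3 and Cpb2 had none). CTGGGA was in 12 of these 29 (41.4%), against 25.7% of the 33469 promoters of the table. TTNNGNAA was in 18 (62.1%) against 37.2%. A match is a description of letters and was not tested as a binding site.

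Plasminogen and the genes that restrain plasmin and thrombin all fell in the DEN model rats. Plasminogen (Plg), the precursor of the fibrin-cleaving plasmin, fell by 1.9996 ± 0.42 in the DEN model group and rose by 1.60 ± 0.42 after PZH (adjusted p = 0.0055 and 0.0331). Serpinf2, which encodes the plasmin inhibitor alpha-2-antiplasmin, fell by 1.63 ± 0.42 (adjusted p = 0.013) and was at 1.302 in the second comparison (adjusted p = 0.0893). Cpb2 encodes a carboxypeptidase that protects fibrin from plasmin. Cpb2 stood at 622, 935 and 666 CPM in the normal control rats, 141, 257 and 110.4 CPM in the DEN model rats and 587, 661 and 627 CPM in the PZH administration rats. Again the DEN model rats were lowest, while the PZH administration rats were within or next to the normal control range.

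Cpb2 fell by 2.11 ± 0.37 and rose by 1.90 ± 0.34 (adjusted p = 0.00242 and 0.0137). Serpinc1, antithrombin, the main plasma inhibitor of thrombin and factor X, stood at 2913, 3231 and 2614 CPM in the normal control rats, 457, 1077 and 369 CPM in the DEN model rats and 2143, 1769 and 1513 CPM in the PZH administration rats. The 3 groups did not overlap, and the PZH administration rats lay between the other groups. Serpinc1 fell by 2.19 ± 0.46 and rose by 1.54 ± 0.44 (adjusted p = 0.00525 and 0.0438).

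Ratios between partner genes within a library do not depend on the scaling of libraries, and are given on the FPKM scale as a description (some pairs were picked after their values were seen). C8g relative to C8a, chains of one protein, was 0.696, 0.408 and 0.779 in the normal control rats, 0.143, 0.168 and 0.165 in the DEN model rats and 0.529, 0.366 and 0.313 in the PZH administration rats. C8b relative to C8a was 0.821 to 0.834, 0.560 to 0.667 and 0.734 to 0.899 in the same groups. Both ratios were lowest in the DEN model rats, without overlap. Mbl2 relative to Mbl1 was 0.583 to 0.847 in the normal control rats, 0.251 to 0.315 in the DEN model rats and 0.390 to 1.305 in the PZH administration rats. F7 relative to F10 went the other way, at 0.115 to 0.166, 0.249 to 0.408 and 0.139 to 0.256. F11 relative to Klkb1 overlapped in all groups, at 0.549 to 0.635, 0.567 to 0.630 and 0.539 to 0.644, and Fgg relative to Fgb was 2.03 to 2.21, 1.82 to 1.97 and 1.76 to 2.06.

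Hepatocyte markers moved in the same direction as most members. The 9 markers found of 10 listed (Alb, Ttr, Apoa1, Apob, Serpina1, Tat, Cps1, Cyp2e1 and Tf) together held 13.4 to 14.3% of counts in the normal control rats, 7.38, 10.1 and 5.68% in DEN model rats 13, 17 and 24, and 13.6 to 15.3% in the PZH administration rats. All 9 had negative fitted values in the DEN model group and 4 were called lower, and 3 rose in PZH administration rats against that. Among all genes, 20.5% were called lower in the first of these comparisons and 8.72% higher in the second. The members together held 4.69 to 5.74%, 2.22 to 4.47% and 3.52 to 5.68% of counts in the 3 groups. The part of hepatocyte number in the member values was not tested.

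Relative to the summed counts of these hepatocyte markers, most members moved by less than 1 on the log2 scale in each comparison and the rest by more. The difference in the mean log2 ratio between DEN model and normal control rats had a median of -0.03 over the 39 identifiers, and 29 of them lay within 1 on either side of 0. Outside on the low side were Mbl2 at -2.02, C8g at -2.01 and the second Cfb identifier at -2.85. Outside on the high side were C1qa at 1.995, C1qb at 2.48, C1qc at 2.27, C2 at 1.47, Cfd at 2.34, F5 at 1.40 and F3 at 5.28. Between PZH administration and DEN model rats 31 identifiers lay within 1, and those outside were Mbl2 at 1.72 on the high side and C1qa at -2.56, C1qb at -2.88, C1qc at -2.62, C2 at -1.24, Cfd at -2.76, F5 at -1.08 and F3 at -3.10 on the low side. C3 differed from the markers by 0.06 and Fga by 0.12 in the DEN model rats. No test was made on these ratios, their spread over all genes was not computed, and the markers themselves fell unequally, from -0.30 for Apoa1 to -3.89 for Ttr. The marker sum depends strongly on Alb. Alb held 50.8 to 56.4% of the marker counts in the normal control rats and 36.9 to 42.3% in the DEN model rats. In the PZH administration rats it held 47.8 to 55.5%.

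**Figure D5:**
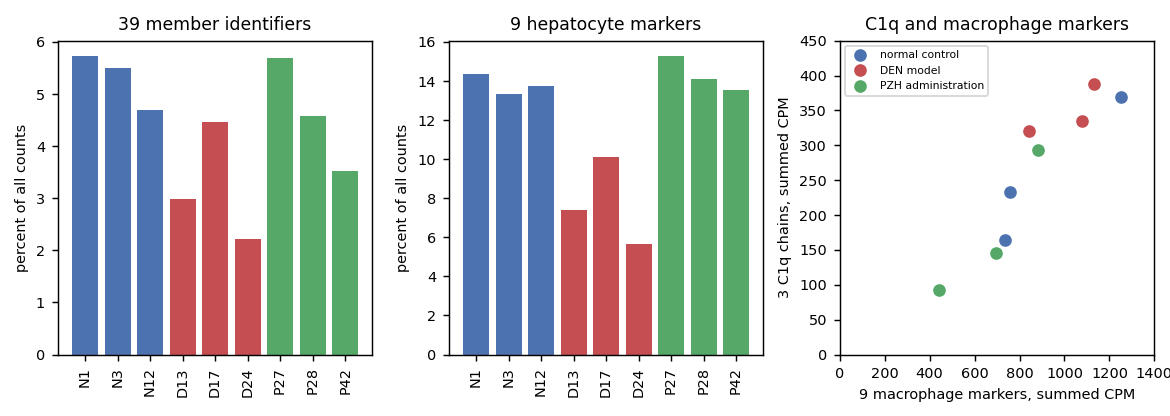
Left and middle, percent of all counts held by the 39 member identifiers and by the 9 hepatocyte markers in each rat (bars from 0; N normal control, D DEN model, P PZH administration); right, summed CPM of the 3 C1q chains against the summed CPM of 9 macrophage markers, 1 point per rat. The DEN model rats have the lowest hepatocyte marker shares (5.68 to 10.1%), and the C1q sum of the 3 PZH administration rats runs from 91.9 to 293 CPM.

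Other genes of the cascades were called in both directions. Of 74 further complement and coagulation genes listed, 68 were found and 64 tested in DEN model against normal control rats. There 25 rose and 19 fell, with a median log2 fold change of 0.09, against 25.3% of all genes higher and 20.5% lower. With library totals the split was 33 higher and 12 lower, against 57% of all genes higher and 6.72% lower. Between PZH administration and DEN model rats 8 of 63 rose and 16 fell, against 8.72% of all genes higher and 10.3% lower. Relative to the normal control group 10 of 62 were higher and none lower in edgeR's test, against 4.07% and 1.15% of all genes. In that comparison 6 were lower at an unadjusted p under 0.05 and 0 lower in DESeq2. The count between PZH administration and DEN model rats was 5 without DEN model rat 13 and 10 without DEN model rat 24, against 1.87% and 5% of all genes. It was 15 without PZH administration rat 27 or 28 and 12 without rat 42, against 14.9%, 7.94% and 8.22% of all genes. With library totals it was 37 (7 higher and 30 lower), against 3.9% of all genes higher and 39.9% lower. The 10 calls relative to the normal control group became 2, 6 and 5 without normal control rats 1, 3 and 12, against 1.51%, 3.14% and 2.44% of all genes. They became 16, 3 and 6 without PZH administration rats 27, 28 and 42, against 9.73%, 1.56% and 2.66% of all genes.

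The largest falls among these genes in the DEN model group were those of plasma proteins. Among them were Vtn, vitronectin, at -2.58 ± 0.58 (adjusted p = 0.00713), Hrg, histidine-rich glycoprotein, at -2.50 ± 0.66 (adjusted p = 0.0142), Cpn2 at -2.31 ± 0.43 (adjusted p = 0.00318) and C4bpb at -2.30 ± 0.50 (adjusted p = 0.00646). Cpn2 belongs to carboxypeptidase N, which trims anaphylatoxins, and C4bpb to the C4b-binding protein, an inhibitor of the classical pathway. In the PZH administration group Hrg, C4bpb and Cpn2 rose by 2.45, 1.85 and 1.74 (adjusted p = 0.0355, 0.0336 and 0.0337), as did Habp2, a plasma protease, by 1.54 (adjusted p = 0.0321).

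The largest rises in the DEN model group were those of membrane proteins and of A2m. F2rl1, a protease-activated receptor, was at 0, 0 and 3 counts in the normal control rats and at 6.24, 4.11 and 20.5 CPM in the DEN model rats, at least 43.1-fold higher against a floor of 3 counts per library. Bdkrb2, the bradykinin receptor, was at least 10.6-fold higher on the same floor. Cd55, which speeds the decay of convertases on cells, stood at 0, 0.252 and 0.534 CPM in the normal control rats, 14.3, 3.27 and 40.3 CPM in the DEN model rats and 1.24, 2.09 and 1.99 CPM in the PZH administration rats. DEN model rat 17 was the lowest of its group for F2rl1 and Cd55, as it was for F3. Anxa2, a cell-surface assembly site for plasmin formation, was at 4.79 ± 0.38 (adjusted p = 0.000109).

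A2m, alpha-2-macroglobulin, a broad protease inhibitor, stood at 1.48, 2.52 and 2.29 CPM in the normal control rats, 19.0, 76.9 and 53.1 CPM in the DEN model rats and 94.6, 129 and 39.3 CPM in the PZH administration rats. The PZH administration rats overlapped with the DEN model rats, and A2m there was above the normal control group by 5.38 ± 0.48 (adjusted p = 0.0021). In PZH administration against DEN model rats the largest falls included those of F2rl1 at -4.41 ± 0.70 (adjusted p = 0.0106), Cd55 at -3.44 ± 0.81 (adjusted p = 0.0254), Plat, tissue plasminogen activator, at -2.48 ± 0.47 (adjusted p = 0.0152), and Anxa2 at -2.35 ± 0.32 (adjusted p = 0.00893).

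Regulators listed for these genes fell more often than they rose. Of 17 tested out of 19 listed, 10 were lower and 1 higher in the DEN model group, and 7 higher and 1 lower in PZH administration rats against that. Among all genes, 20.5% were lower and 25.3% higher in the first comparison, and 8.72% higher and 10.3% lower in the second. Il6r, the interleukin-6 receptor that drives acute-phase genes in hepatocytes, stood at 289.6, 269 and 389 CPM in the normal control rats, 42.2, 55.9 and 32.2 CPM in the DEN model rats and 203, 142 and 161 CPM in the PZH administration rats. The DEN model rats were lowest and all PZH administration rats were below all normal control rats. Il6r fell by 2.85 ± 0.28 and rose by 1.98 ± 0.26 (adjusted p = 0.000229 and 0.00891). Osmr, the receptor of the related cytokine oncostatin M, stood at 3.74, 4.70 and 4.73 CPM in the normal control rats, 54.8, 45.9 and 50.2 CPM in the DEN model rats and 17.5, 25.9 and 29.3 CPM in the PZH administration rats. It rose by 3.53 ± 0.19 (adjusted p = 2.1e-05), with the 3 groups apart from each other.

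The liver-enriched transcription factors Hnf4a, Cebpa and Cebpb fell by 1.64, 1.69 and 1.99 (adjusted p = 0.00242, 0.000782 and 0.000892). Cebpb was at 0.34 in PZH administration against DEN model rats (adjusted p = 0.238) and lower than in the normal control group by 1.68 (adjusted p = 0.0104). Il6 and Tnf had too few reads to be tested, with Il6 at 0 counts in all normal control and PZH administration rats. These regulators were picked from the list after their values were seen, and no link between a regulator and a member was tested.

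Markers of the remaining cell types changed as follows in DEN model against normal control rats, and in PZH administration against DEN model rats. Among all genes, 25.3% rose and 20.5% fell in the first, and 8.72% rose and 10.3% fell in the second. All 3 neutrophil markers tested rose in the first comparison and fell in the second. Of 5 endothelial markers 1 rose (Cdh5) and 2 fell (Lyve1 and Kdr) in the first, and their values lay between -0.88 and 0.97 in the second. Of 2 platelet markers tested, Pf4 rose and then fell. The 4 red cell identifiers lay between 0.45 and 1.70 in the first and 3 of them fell in the second, and of 5 lymphocyte markers tested 3 rose in the first and 1 (Cd4) fell in the second. The part of these cells in the member values was not tested.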

How the data were processed

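The authors deposited raw counts per gene and FPKM values for 9 liver libraries. The submitters' processing notes name fastp, HISAT2 (2.1.0), StringTie (1.3.3b) and edgeR (3.30.3), and the genome build of the deposited coordinates is not given in the sources used here. From the deposited counts, each comparison was fitted on its 6 rats with edgeR 4.0.16 in R 4.3.3 (filterByExpr, TMM factors, quasi-likelihood F-test), p-values being adjusted over all genes tested (Benjamini-Hochberg) at a threshold of 0.05. Standard errors were taken from the fold change and its F value. The deposited FPKM values served to compare levels between genes, and as log2(FPKM + 1) in limma 3.58.1. DESeq2 1.42.0, other scalings, other filters and leaving out each rat were alternatives. The floor was 3 counts per library and covers counting error only. The scripts were tested on simulated data.

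The members and lists were chosen with earlier results of these data known. All members are named. Values in every rat are given for members past the study's thresholds, for those with the largest change in their role group, and for the chains of C1q and fibrinogen (others were added after their values were seen). From the further pathway genes, the 5 highest and 5 lowest called log2 fold changes of the first 2 comparisons are named, except that some items are not reported here. Each rat is 1 animal and 1 library.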

Additional observations from a re-analysis of the deposited data

How the results depend on the processing

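No paired analysis was possible because the groups share no rat numbers. At the study's thresholds the numbers of members called were 11, 2 and 0 in the DEN model against normal control, PZH administration against DEN model and PZH administration against normal control comparisons. Of all genes tested, 12.3%, 2.43% and 2.32% met these thresholds. DESeq2 called 28 members in the second and 5 in the third, against 26.5% and 9.89% of all genes. The fit of all 3 groups together called 1 member in the third, and 1000 genes among all genes. Leaving out 1 rat gave 23 to 33, 1 to 30 and 0 to 8 members. For the further pathway genes it gave 38 to 48, 5 to 31 and 2 to 16, and library totals gave 37 in the second comparison. Over all genes, the first comparison called 6529 genes, and 4724 to 6790 with 1 rat left out. The second called 2722, 6252 with library totals and 271 to 3319 with 1 rat left out. The third called 696, 1320 with DESeq2, 340 with at least 10 counts in every rat, and 207 to 1326 with 1 rat left out.

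With library totals, F5 and C2 were at 0.53 and 0.57 in the first comparison and -0.16 and -0.31 in the second, and with limma at 0.51 and 0.58, both called higher, and at -0.15 and -0.31. In the third, C9, C5, C1r and Cpb2 turned to 0.0068, 0.042, 0.020 and 0.00084 with library totals and to 0.0097, 0.029, 0.0025 and 0.0095 with limma. With 1 rat left out, C1qa ranged from -0.15 (without normal control rat 3) to 0.49 in the first comparison. In the third, C9 ranged from -0.41 to 0.017, C2 from -0.080 to 0.14, C1r from -0.51 to 0.013 and C1s from -0.71 to 0.041. The causes were not tested.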
